A study of Mus musculus with 2 samples.

Results

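Integrins, laminins and the linkers that tie laminin networks into basement membranes were examined in cultured mouse cavernous primary pericytes, the mural cells of small vessels, isolated from the penis of C57BL/6 mice. A member was any gene named as an integrin alpha or beta chain or a laminin chain, together with Nid1, Nid2, Hspg2, Agrn and Dag1. The arrays held 42 such genes of 20887 named genes, and 37 of them were well above background on both arrays. One pool had been kept in high glucose, labelled 30 mmol, and the other pool in normal glucose, labelled 5 mmol, each for 72 h. All cells were grown in DMEM supplemented with FBS at 20%, antibiotics at 1% and human PEDF, pigment epithelium-derived factor, at 10 nM. RNA of 3 samples was pooled per condition and hybridised to 1 single-colour Agilent array, so every difference below is between 2 pools and has no replicate check and no p-value.

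Integrins are paired alpha and beta chains that span the cell membrane and bind matrix outside the cell to the actin cytoskeleton inside it. Laminins are cross-shaped trimers of an alpha, a beta and a gamma chain, and they form the first sheet of a basement membrane. Nidogens and the heparan sulphate proteoglycans perlecan (Hspg2) and agrin (Agrn) join that sheet to collagen IV, and dystroglycan (Dag1) is a laminin receptor that is not an integrin. Pericytes share a basement membrane with the endothelium they wrap.

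The members differed little between the pools. Of the 37 measured members, 33 (89.2%) differed by less than 1.2-fold, against 87.7% of 14176 named genes measured on both arrays. No member was at least 1.2-fold higher in high glucose, where 6.8% of all measured genes were. The laminin chains Lama2, Lama3 and Lamc3 and the leukocyte integrin chain Itgax were at least 1.2-fold lower, 4 of 37, where 5.51% of all measured genes were. Of these 4, only Lama2 had a mean signal of at least 500. Among the 27 members that bright it was the 1 member lower by 1.2-fold, where 1.65% of 9645 such genes were, and 2.81% of those genes were higher by as much. The shares over all genes would put 2.52 of 37 members 1.2-fold higher and 2.04 lower, so both counts lie within 3 genes of the background.

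Signals below are processed intensities as the scanner software gave them, and a ratio is the log2 of high over normal glucose after each array was scaled to its 75th percentile over probes. That percentile was 733 in high and 774 in normal glucose, so equal signals on both arrays give a log2 ratio of 0.08. The error of a ratio was read from 283 probes printed 10 times and well above background. Among the dimmest of them, with signals under 100, the log2 ratios of a probe's spots had a median SD of 0.34. The median SD was 0.11 for probes between 100 and 500, 0.044 for those up to 4000 and 0.032 for brighter ones. These SDs cover spots within the 2 arrays and leave out differences between cultures. Each member probe was printed once. In bulk RNA, fewer cells of a type and less RNA per cell cannot be told apart.

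The pool labels were checked against markers. Of 12 pericyte markers 10 were measured on both arrays, among them Pdgfrb, with signals of 18161 in high and 17471 in normal glucose, while Kcnj8 and Vtn were not well above background. The measured ones had log2 ratios from -0.45 to 0.58, with 5 of 10 below 0. The lowest was Abcc9, at 99.3 in high and 144 in normal glucose. The highest was Rgs5, at 133 in high and 93.9 in normal glucose. Of 8 fibroblast markers 7 were measured, and so were 7 of 7 smooth muscle markers. Measured as well were 7 of 8 Schwann markers and 10 of the 11 immune markers on the arrays. Marker detection thus does not separate pericytes from those cells. Of 10 endothelial markers 4 were measured: Kdr had a signal of 7075 in high and 7379 in normal glucose, Flt1 had 1146 in high and 1432 in normal glucose, and Pecam1 and Vwf were under 100 on both arrays. Cdh5, Cldn5, Emcn, Erg, Tek and Tie1 were not well above background on either array.

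**Figure D1:**
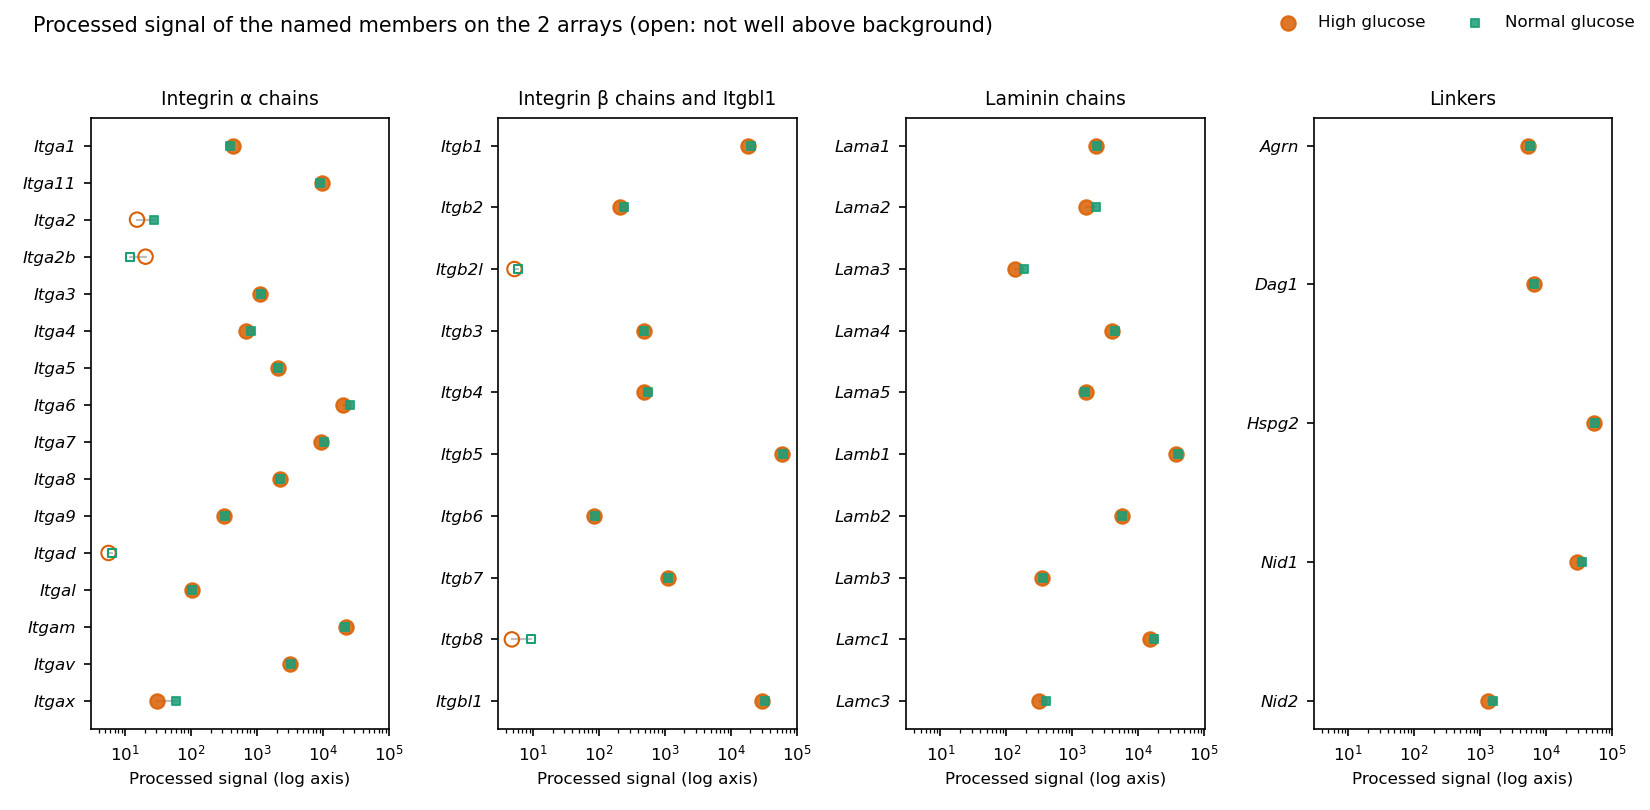
Processed signal (log axis, arbitrary scanner units) of the brightest probe of 41 of the 42 members on the 2 arrays, circles for high and small squares for normal glucose; open symbols were not well above background. For most members the 2 symbols overlap, and the widest gaps among filled symbols are those of Itgax, Lama2, Lama3 and Lamc3.

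Lama2, the laminin alpha chain of muscle and peripheral nerve basement membranes, was the bright member with the lowest ratio. Its signal was 1618 in high and 2252 in normal glucose, 1.32-fold lower in high glucose (log2 ratio -0.40, spot SD 0.044). A second Lama2 probe had 1111 in high and 1420 in normal glucose, with a log2 ratio of -0.27. Both probes were thus lower, and they differed from each other by 0.12. Over 1862 genes with 2 probes at 500 or more, the median difference between probes was 0.061, and 90% of genes lay within 0.20. In 62.9% of these genes both probes had the same sign. Across 11 other ways of processing the arrays the Lama2 ratio stayed between -0.47 and -0.34. Markers of Schwann cells and fibroblasts were also mostly lower. Of 7 measured Schwann markers 6 were below 0, with a median log2 ratio of -0.06 and a range from -0.91 (Mal) to 0.05 (Mbp). Their summed signals were 6643 in high and 7272 in normal glucose. Mal, at 57.4 in high and 114 in normal glucose, was dim. So was Cdh19, at 50.1 in high and 89.2 in normal glucose (log2 ratio -0.75). Of the 7 Schwann markers 5 differed by less than 1.1-fold. Of 7 measured fibroblast markers 6 were below 0, with a median of -0.18, a range from -0.50 (Clec3b, which was dim) to 0.04 (Col1a1) and summed signals of 235833 in high and 259214 in normal glucose. Fap, at 2741 in high and 3755 in normal glucose, had a log2 ratio of -0.37, and Dpt was not well above background. Smooth muscle markers had ratios on the other side, with 7 of 7 above 0 and a median of 0.11. Their summed signals were still lower, at 631121 in high and 652516 in normal glucose. Summed signals are not scaled between the arrays, and ratios are. Pericyte markers were split, with 5 of 10 below 0 and summed signals of 108899 in high and 118647 in normal glucose. Of the skeletal muscle markers, 2 of 2 measured were below 0. Over all measured genes 53.2% were below 0. The part of these cell types in the Lama2 value was not tested.

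The nidogens were lower by a smaller amount. Nid1, which bridges laminin gamma chains and collagen IV, had a signal of 29498 in high and 34735 in normal glucose, 1.11-fold lower (log2 ratio -0.16, spot SD 0.032). Its other measured probes gave log2 ratios of -0.24 and -0.20, so 3 of 3 probes were lower. Over 3632 genes with 2 measured probes, the 2 brightest shared a sign in 59.2%. Nid2, the paralogue of Nid1, had 1313 in high and 1571 in normal glucose, 1.13-fold lower (log2 ratio -0.18). Neither nidogen reached 1.2-fold.

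Promoter sequence is shown for Lama2 and Nid1, whose measured probes were all lower, beside Lamb1, a laminin beta chain that pairs with Lama2 and had a ratio near 0. The choice was made after the values were seen. Each is the stretch of 250 bases before the RefSeq gene start in GRCm38.p6, read 5′ to 3′ on the gene's strand. They lie at chr10:27616943-27617192 on the minus strand for Lama2, chr13:13437352-13437601 on the plus strand for Nid1 and chr12:31265043-31265292 on the plus strand for Lamb1. Capitals mark matches on either strand to the letters of the CCAAT box, the GC box (GGGCGG), the TATA box (TATAAA), the palindromic E box (CACGTG) and the AP-1 motif (TGACTCA). On the other strand the GC box reads CCGCCC, and no marked matches overlap. Nid2 had no window in the table.
Lama2: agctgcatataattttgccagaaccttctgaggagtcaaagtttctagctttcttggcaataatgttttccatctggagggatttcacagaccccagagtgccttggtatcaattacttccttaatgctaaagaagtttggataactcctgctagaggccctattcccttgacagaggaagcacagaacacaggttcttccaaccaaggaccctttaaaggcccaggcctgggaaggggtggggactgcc
Nid1: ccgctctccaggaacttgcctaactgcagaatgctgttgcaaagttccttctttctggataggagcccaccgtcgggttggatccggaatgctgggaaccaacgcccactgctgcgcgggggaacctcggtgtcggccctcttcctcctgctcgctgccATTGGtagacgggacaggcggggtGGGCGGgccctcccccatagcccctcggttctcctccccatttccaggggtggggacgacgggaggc
Lamb1: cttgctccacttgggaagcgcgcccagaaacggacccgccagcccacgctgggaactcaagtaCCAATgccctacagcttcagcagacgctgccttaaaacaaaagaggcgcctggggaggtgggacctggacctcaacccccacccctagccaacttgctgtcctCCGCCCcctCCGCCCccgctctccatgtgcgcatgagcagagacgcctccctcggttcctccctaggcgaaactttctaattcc
The Lama2 window held none of the 5 motifs and no CG dinucleotide, at 47.2% G and C. The Nid1 window held 1 CCAAT, 1 GGGCGG and 16 CG dinucleotides at 64.4% G and C, and the Lamb1 window 1 CCAAT, 2 GGGCGG and 14 CG dinucleotides at 62.0%. Across 33 windows of 28 members, medians were 60.8% G and C and 11 CG dinucleotides. Across 32851 windows of all genes they were 52.4% and 6. GGGCGG was present in 48.5% of member windows, against 32.7% of all windows. CCAAT was present in 24.2% of member windows, against 33.9% of all windows. TGACTCA stood in 3.03% of member windows, against 4.46% of all. TATAAA stood in 0 member windows, against 12.4% of all, and CACGTG in 0, against 6.02% of all. The motif shares were not adjusted for base composition. A match is a string of letters only and shows no bound factor.

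The remaining laminin alpha chains showed no common direction. Lama3, a chain of epidermal anchorage, had a signal of 136 in high and 186 in normal glucose, 1.29-fold lower (log2 ratio -0.36, spot SD 0.11). Its second probe, at 29.0 in high and 28.0 in normal glucose, was well above background in high glucose alone, and its difference lay within the spot SD of 0.34 at such signals, so it gave no direction. Lama4, a chain of vessel basement membranes, had 3928 in high and 4420 in normal glucose (log2 ratio -0.09). Lama1, known from early embryonic membranes, had 2317 in high and 2327 in normal glucose (log2 ratio 0.07). Lama5, a widespread chain of mature basement membranes, had 1591 in high and 1575 in normal glucose (log2 ratio 0.09). The median over the 5 alpha chains was -0.09, where that of all measured genes was -0.01.

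Among the beta and gamma chains only Lamc3 reached 1.2-fold. Lamc3, a gamma chain of nerve and retina, had a signal of 308 in high and 401 in normal glucose, 1.23-fold lower (log2 ratio -0.30, spot SD 0.11), on its only probe. Measured spots around it were shifted by -0.065, and with that shift subtracted its ratio was -0.24, under 1.2-fold. Lamc1, the gamma chain of most laminins, had 15152 in high and 17048 in normal glucose (log2 ratio -0.09). Its usual partner Lamb1 had 36770 in high and 39462 in normal glucose (log2 ratio -0.02). The Lamc1 value was larger than its spot SD of 0.032 and the Lamb1 value was not.

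Lamb2 and Lamb3 stood slightly above 0. Lamb2, the beta chain of synaptic and glomerular basement membranes, had 5596 in high and 5586 in normal glucose (log2 ratio 0.08). Lamb3, a beta chain that pairs with Lama3, had 348 in high and 360 in normal glucose (log2 ratio 0.03). Of 10 epithelial markers, considered because Lama3 and Lamb3 are typical of epithelium, 5 were measured. The summed signal of those 5 was 4269 in high and 4017 in normal glucose, most of it from Krt19 at 3509 in high and 3234 in normal glucose, and 4 of the 5 had log2 ratios above 0. Cldn4 was not well above background in high glucose, at 6.11, and had 148 in normal glucose. Epcam, Cdh1, Krt8 and Grhl2 were not well above background on either array. Their part in the Lama3 value was not tested.

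Perlecan, agrin and dystroglycan were close to equal on their brightest probes. Dag1 had a signal of 6574 in high and 6644 in normal glucose (log2 ratio 0.06). Hspg2 had 53820 in high and 55021 in normal glucose (log2 ratio 0.05). A second Hspg2 probe gave 1033 in high and 1404 in normal glucose (log2 ratio -0.36). The 2 Hspg2 probes thus differed by 0.41, beyond the 0.20 within which 90% of bright probe pairs lay, so the direction for perlecan rests on which probe is read. Agrn had 5325 in high and 5598 in normal glucose (log2 ratio 0.01). A second Agrn probe was not well above background in high glucose, at 18.1, and had 76.5 in normal glucose, with a bound of 3.02-fold lower in high glucose. The bound sets the bright value against 24.0, the lowest high glucose signal that was well above background. It takes a dim spot as exact, though the spot SD at such signals was 0.34. With median pixel signals the log2 ratio of this probe was -1.39, a smaller difference than the bound.

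**Figure D2:**
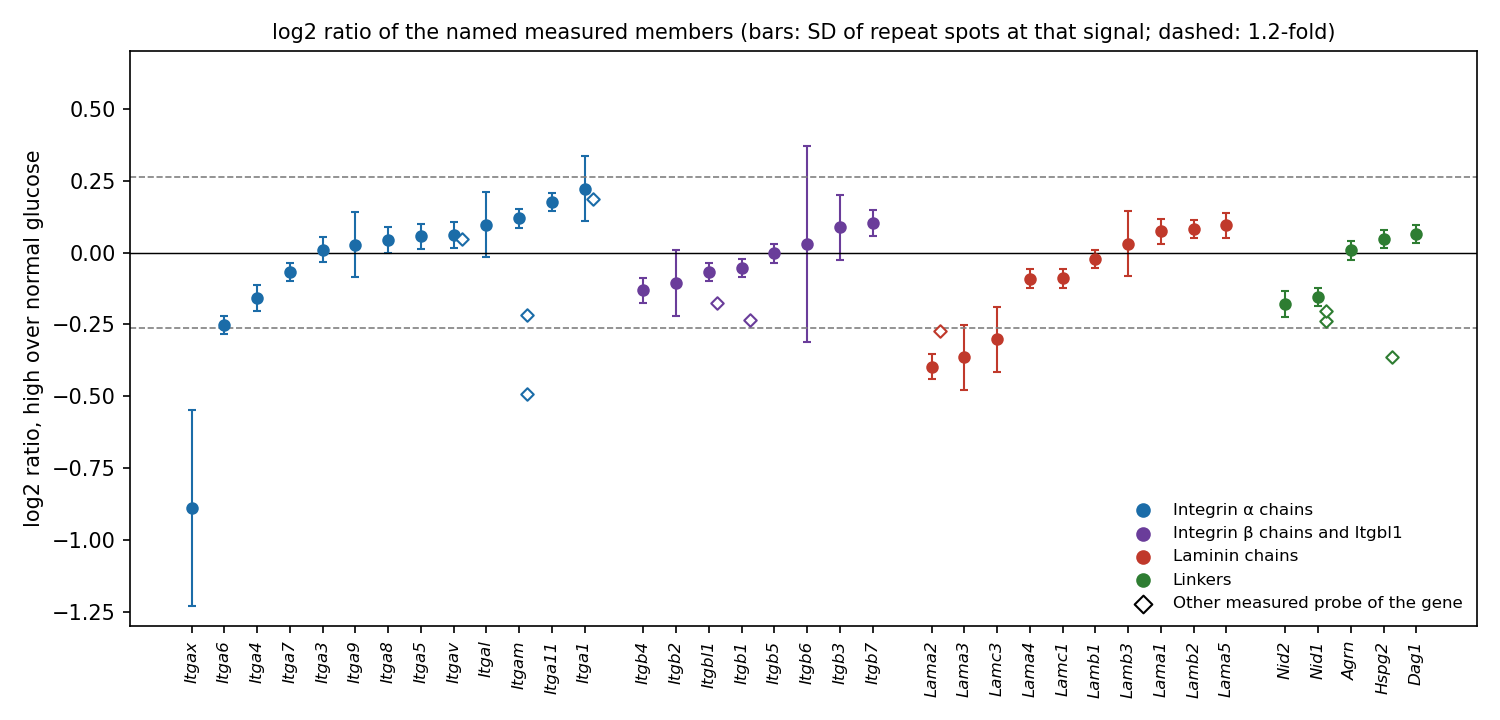
log2 ratio of high over normal glucose for 36 of the 37 measured members, ordered within each group; filled points are the brightest probe with the SD of repeat spots at that signal, open diamonds are other measured probes of the same gene, and dashed lines mark 1.2-fold. The points of Itgax, Lama2, Lama3 and Lamc3 lie below the lower line and no brightest probe lies above the upper line.

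Among the integrin chains that bind laminin, Itga6 was lowest. Itga6 pairs with Itgb1 or Itgb4. On its only probe it had a signal of 20526 in high and 25833 in normal glucose, 1.19-fold lower (log2 ratio -0.25, spot SD 0.032). This was the nearest value short of 1.2-fold, and it passed with each array centred on its median, at -0.31. Itga7, the muscle laminin receptor, had 9344 in high and 10350 in normal glucose (log2 ratio -0.07). Itgb4, the beta chain of hemidesmosomes, had 484 in high and 561 in normal glucose (log2 ratio -0.13). Itga3 had 1097 in high and 1152 in normal glucose (log2 ratio 0.01). The median over these 4 chains was -0.10, and 3 of 4 were below 0, where 53.2% of all measured genes were.

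The 2 measured collagen-binding chains stood on the other side of 0. Like the laminin-binding chains, they were grouped after their values were seen. Itga1, a receptor of collagen IV, had a signal of 435 in high and 394 in normal glucose, with a log2 ratio of 0.22 and a spot SD of 0.11. This was the highest ratio of any measured member. It was 0.27, past 1.2-fold, with the shift of neighbouring spots subtracted, but 0.11 with the background modelled and 0.12 with median pixel signals, and in those last 2 settings Itga11 was higher. Its second probe, at 122 in high and 113 in normal glucose, gave 0.19. Itga11, a receptor of fibrillar collagen on stromal cells, had 9590 in high and 8975 in normal glucose (log2 ratio 0.18, spot SD 0.032). Itga2, the third collagen receptor on the arrays, was not well above background in high glucose, at 15.3, and had 27.7 in normal glucose. Set against the lowest high glucose signal well above background, it was 1.09-fold lower in high glucose. That bound is smaller than the spot SD of 0.34 at such signals, so it gave no direction.

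Chains of the integrins that bind RGD motifs, as in fibronectin and vitronectin, were nearly equal between the pools. Itga5, the fibronectin receptor chain, had a signal of 2081 in high and 2115 in normal glucose (log2 ratio 0.06). Itgav, a chain of vitronectin receptors that also release latent TGF-beta, had 3211 in high and 3253 in normal glucose (log2 ratio 0.06), and its second probe gave 0.05. Itga8, a nephronectin receptor of mesenchymal cells, had 2211 in high and 2268 in normal glucose (log2 ratio 0.04). Itgb5, an Itgav partner, had 59289 in high and 62788 in normal glucose (log2 ratio -0.003). Itgb3, the other classical vitronectin receptor chain, had 486 in high and 484 in normal glucose (log2 ratio 0.09). Itgb6, the epithelial partner of Itgav, was dim, at 84.5 in high and 87.5 in normal glucose (log2 ratio 0.03). Ratios of these 6 chains spanned -0.003 to 0.09, and their median was 0.05. Itgb8, which activates latent TGF-beta with Itgav, and Itga2b, the platelet chain, were not well above background on either array.

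Itgb1, the common partner of most alpha chains above, had a signal of 18472 in high and 20259 in normal glucose (log2 ratio -0.05, spot SD 0.032). Its second probe had 3719 in high and 4627 in normal glucose (log2 ratio -0.24). Both probes were below 0, but their gap of 0.18 left the size uncertain. Itga4, a receptor of VCAM-1 and fibronectin, had 689 in high and 814 in normal glucose (log2 ratio -0.16, spot SD 0.044). Itga9, a tenascin receptor chain, had 314 in high and 326 in normal glucose (log2 ratio 0.03). Itgbl1, a secreted protein named for its likeness to beta chains and not itself a receptor, had 30133 in high and 33360 in normal glucose (log2 ratio -0.07), and -0.18 on its second probe.

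Chains typical of leukocytes were mixed, and the largest member difference was among them. Itgax, the CD11c chain of dendritic cells, had a signal of 30.2 in high and 59.2 in normal glucose, 1.85-fold lower (log2 ratio -0.89). It was the 1 member of 37 past 1.5-fold lower, where 1.19% of all measured genes were, and no member was 1.5-fold higher, where 1.62% of genes were. The spot SD at such signals was 0.34. With the background modelled and an offset of 50 added, the Itgax ratio was -0.28.

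Itgam, the CD11b chain of macrophages and granulocytes, had a signal of 22557 in high and 21959 in normal glucose on its brightest probe (log2 ratio 0.12). Its other probes had 73.8 in high and 90.7 in normal glucose (log2 ratio -0.22) and 31.3 in high and 46.5 in normal glucose (log2 ratio -0.49). The sign for Itgam thus depended on the probe. Both lower probes were dim, where the spot SD was 0.34, and the -0.22 lay within it. Itgal, the T cell partner of Itgb2, had 105 in high and 104 in normal glucose (log2 ratio 0.10). Itgb2 had 212 in high and 241 in normal glucose (log2 ratio -0.11), and Itgb7, the lymphocyte homing chain, had 1140 in high and 1123 in normal glucose (log2 ratio 0.10). Itgad and Itgb2l, a paralogue of Itgb2, were not well above background on either array. Of 11 immune markers on the arrays 10 were measured, with a summed signal of 14339 in high and 13802 in normal glucose and log2 ratios from -0.08 to 0.30. Ptprc, the pan-leukocyte CD45, had 42.5 in high and 39.1 in normal glucose. Their part in the leukocyte chain values was not tested.

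**Figure D3:**
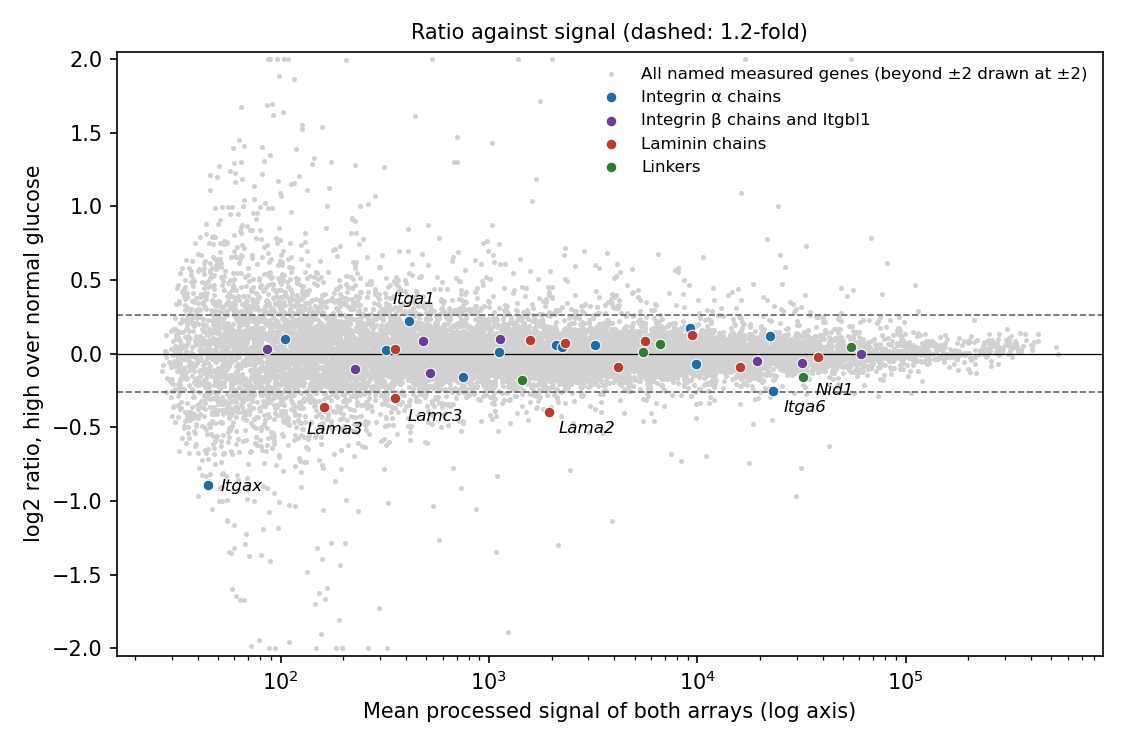
log2 ratio of high over normal glucose against the mean processed signal of both arrays (log axis) for 14176 named measured genes (grey) and the 37 measured members (coloured by group); dashed lines mark 1.2-fold. The grey cloud widens towards low signals, where Itgax and Lama3 lie, and Lama2 lies below 1.2-fold at a signal where few genes do.

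By group, medians lay close to 0. The median log2 ratio was 0.03 over 20 measured integrin chains and -0.01 over 16 measured laminins and linkers, where it was -0.01 over all measured genes. Of the members, 17 of 37 (45.9%) were below 0, where 53.2% of all measured genes were. With each array centred on its median every log2 ratio was 0.06 lower, and 67.6% of members and 72.7% of all measured genes were below 0. The sign of 11 members changed under at least 1 way of processing, namely Agrn, Hspg2, Itga3, Itga5, Itga8, Itga9, Itgam, Itgb5, Itgb6, Lamb1 and Lamb3. The other 26 members kept theirs. Of 8 members with more than 1 measured probe, 6 had all probes on 1 side of 0, and Hspg2 and Itgam did not. Over 3632 genes with 2 measured probes, the 2 brightest shared a sign in 59.2%, so the member count is near that background.

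Genes that work beside the members were counted in 4 lists. Over all measured genes, 6.8% were at least 1.2-fold higher and 5.51% lower. Adaptors and activators of adhesion, such as talin, kindlins and focal adhesion kinase, had 0 of 34 measured genes at least 1.2-fold higher and 1 lower, with a median log2 ratio of 0.01. The lower one was Src, a tyrosine kinase, at 71.1 in high and 91.3 in normal glucose (log2 ratio -0.28). Src was dim, and its ratio lay within the spot SD of 0.34 at such signals. The highest was Cd151, a tetraspanin that binds laminin receptors, at 0.19. Tln1 had 0.10, Ilk 0.08 and Ptk2 0.06.

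Partners of dystroglycan and the enzymes that glycosylate it had 1 of 27 measured genes higher and 0 lower by 1.2-fold, with a median of -0.03. The shares over all measured genes were 6.8% higher and 5.51% lower. Sntb1, a syntrophin of the dystrophin complex, had a signal of 111 in high and 57.7 in normal glucose, 2.03-fold higher (log2 ratio 1.02). A second Sntb1 probe gave 0.45 from signals of 44.8 in high and 34.7 in normal glucose. Both probes were dim. The lowest was Dtnb, a dystrobrevin, at -0.22, while dystrophin (Dmd) had -0.09 and utrophin (Utrn) -0.11.

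Other basement membrane genes had 3 of 28 measured genes higher and 1 lower by 1.2-fold, with a median of -0.02. The shares over all measured genes were 6.8% higher and 5.51% lower. Sdc1, the heparan sulphate proteoglycan syndecan of the cell surface, had a signal of 5859 in high and 4806 in normal glucose, 1.29-fold higher (log2 ratio 0.37). Fras1, a matrix protein of epithelial basement membranes, had 255 in high and 205 in normal glucose (log2 ratio 0.39), and Tinag, a kidney tubule antigen, was dim at 43.2 in high and 35.2 in normal glucose (log2 ratio 0.38). Lrp4, the agrin receptor, had 163 in high and 242 in normal glucose, 1.40-fold lower (log2 ratio -0.49). Of the collagen IV chains, Col4a1 had a log2 ratio of 0.02, Col4a2 0.13, Col4a4 0.05, Col4a5 -0.04 and Col4a6 -0.17, and Col4a3 was not well above background.

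Integrin ligands had 2 of 24 measured genes higher and 1 lower by 1.2-fold, with a median of 0.003. The shares over all measured genes were 6.8% higher and 5.51% lower. Emilin1, an elastic fibre protein that Itga4 and Itga9 integrins bind, had a signal of 807 in high and 540 in normal glucose, 1.58-fold higher (log2 ratio 0.66). Madcam1, a ligand of Itgb7 integrins, was dim at 41.2 in high and 36.1 in normal glucose (log2 ratio 0.27). Vwf, the endothelial von Willebrand factor, was dim at 48.5 in high and 74.0 in normal glucose (log2 ratio -0.53). Fn1, fibronectin, had a log2 ratio of 0.09.

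**Figure D4:**
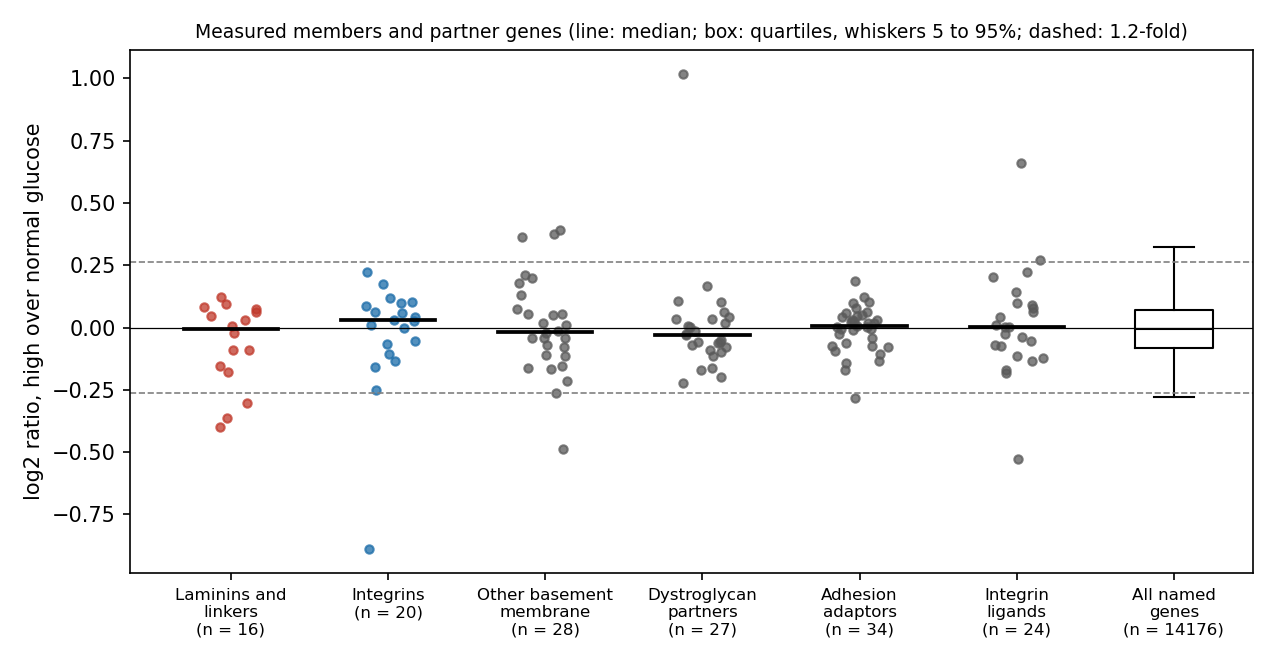
log2 ratio of high over normal glucose for the measured laminins and linkers, the measured integrins and 4 lists of partner genes, a point per gene with a line at the median, beside all 14176 named measured genes as a box of quartiles with whiskers from the 5th to the 95th percentile. Medians of all 6 lists lie within 0.03 of 0, and Sntb1 and Emilin1 lie highest.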

How the data were processed

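The members and lists were chosen with earlier results of these data known. Intensity values were made, per the file headers, with Feature Extraction 11.5.1.1, with background subtracted and the signal detrended within each array, and the 0 or 1 spot flags came from the same software. The submitters' processing notes name version 9.3.2.1. The authors' deposited value table equalled the mean processed signal over spots for 99.8% of probes within a relative tolerance of 0.001; its column medians were 48.9 for high and 49.6 for normal glucose, on a linear, uncentred scale.

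Of 59305 gene spots, 57.6% in high and 56.3% in normal glucose were well above background, and none was saturated. Precision is limited by the number of arrays. The log2 processed signal was averaged over spots of a probe and each array's 75th percentile was subtracted. Probes were named through unversioned RefSeq accessions in the table of assembly GRCm38.p6, and 27509 of 55681 matched 1 symbol. The array design names mm9, so no coordinate was taken from it. Promoter sequences are from RefSeq, GRCm38.p6. A gene was represented by its brightest probe and counted as measured when at least 0.5 of that probe's spots were well above background on both arrays.

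Itgb3bp was left out with the Itgb1bp genes, and Itga10 and Itgae had no matched probe and were not analysed here. With 1 array per condition no test was run, and genes were counted past 1.2-fold and 1.5-fold. All members were named except 1, which is included in the counts and not reported here, and their grouping by ligand was made after their values were seen. From each list of partners every gene past 1.2-fold was named, at most 4 per direction, or else the largest in that direction. Other partners and markers named were chosen after their values were seen. The counting step was tested on data simulated from the normal glucose array with spot noise only. Such data hold no difference between cultures, so the test does not cover that error. Python 3.11.15, pandas 2.3.3, numpy 2.4.6 and limma 3.58.1 were used.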

Additional observations from a re-analysis of the deposited data

How the results depend on the processing

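The counts and medians were recomputed in 11 other ways. Those planned were median pixel signals, quantile normalization, centring on the median, a 75th percentile over detected probes, no dim filter, only genes above the median measured gene, omission of flagged spots, a median over probes and the deposited table. The planned background model on mean spot signals was not run, as the files hold median spot signals, and a model on those with an offset of 50 replaced it. That model and the subtraction of neighbouring spots within 5 rows and columns were chosen after seeing the data. Centring on the median gave medians of -0.0509 over members, -0.0320 over integrins and -0.0680 over laminins and linkers, since it lowers every log2 ratio by 0.06. The median over probes gave -0.0561 for laminins and linkers. With no dim filter 1 member, Itga2b, was at least 1.2-fold higher, where 11.03% of all genes were, and with neighbours subtracted 1 member, Itga1, was, where 6.85% were. Among genes above the median measured gene, which leaves 21 members, 1 member, Lama2, was lower by 1.2-fold, where 1.07% of all genes were. The count of lower members was otherwise between 3 and 6, and Lama2 was among them each time; the share of all genes that low was between 3.35% and 9.82%, the last with no dim filter, where 6 of 42 members were lower. Of 391 recomputed member ratios 59 moved by more than the spot SD, and none of those past 1.2-fold changed sign. No paired analysis was possible because each condition has 1 array. Replicates could not be left out for the same reason. Ratios at signals under 100 are limited by a spot SD of 0.34.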
